A study of Mus musculus with 12 samples.

Results

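Collagen chain genes encode the alpha chains that wind around each other in groups into the triple helices of the extracellular matrix. They were taken as all genes of the table whose mouse identifier maps to a symbol made of Col, a type number, a and a chain number. Of 44 such symbols in the annotation, 40 were in the table of 23106 genes, and 26 of those 40 were tested because they averaged at least 10 normalised reads across the 12 libraries. A normalised read is a read of a gene scaled so that each library sums to 10000000. The libraries were made from cultured C57BL/6 mouse colon fibroblasts of animals aged 12 weeks, in 3 groups of 4 replicates: WT with the guide sgScr (WT-labelled), Prkcz-/- with sgScr (knockout-labelled) and Prkcz-/- with sgSox2 (Sox2-guide). Prkcz encodes protein kinase C zeta, and Sox2 a transcription factor of stem cells. All cells received a guide, were kept in medium with 10% serum, had no treatment and were taken 24 h after plating. The labels call the replicates biological but name no animal or culture behind each, so a p-value here speaks of the spread among these libraries. They do not say whether a guide line is a clone or a pool, nor how many lines stand behind a group, so line and genotype cannot be told apart.

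Collagens are made in the endoplasmic reticulum, where prolines and lysines of each chain are hydroxylated before the chains assemble, and after secretion proteases trim the ends and lysyl oxidases cross-link the molecules. Fibrillar types give tissue its tensile strength, type IV forms the sheet of basement membranes, type VI forms beaded filaments around cells, and fibril-associated types sit on the surface of fibrils. In the gut wall, fibroblasts of the mucosa and submucosa are the main source of types I, III, V and VI.

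The targeted genes went against the labels in part. Prkcz had 0 reads in the WT-labelled libraries, against 32 reads in knockout-labelled and 54 in Sox2-guide libraries. For the libraries labelled Prkcz-/-, a read of the 3' end checks nothing if the deletion lies elsewhere, and its position was not known here. The reason for the 0 reads in the WT-labelled libraries was not tested. Groups are therefore named by their labels, and every direction below is between libraries so labelled. Sox2 had 2, 1960 and 0 reads in the same order. Sequencing gave 2.67 to 5.20 M reads per library and 14906 to 16639 detected genes. By chi-square over degrees of freedom, where counting alone gives about 1, WT-labelled libraries differed among themselves by 1.27 to 2.08. Knockout-labelled libraries differed by 1.43 to 4.71, and the p-values below rest on such spreads. Sox2-guide replicate 1 stood apart, differing from the other libraries of its group by 27.2 to 30.7, while those differed among themselves by 2.38 to 5.27. Its mitochondrial genes took 4.29% of reads, against a range of 9.39% to 10.3% in the rest of its group and 10.5% to 11.6% elsewhere. Fibroblast markers summed to 43578 to 45169 normalised reads in the WT-labelled, 66513 to 68510 in the knockout-labelled and 37059 to 41083 in the Sox2-guide libraries, with 9 of 9, 9 of 9 and 8 of 9 markers detected. The members of that list did not move alike. Fn1 averaged 13295, 42618 and 10185 in the WT-labelled, knockout-labelled and Sox2-guide group, and Pdgfra 249.4, 1448 and 40.9. Vim averaged 18846, 14820 and 21466, and S100a4 9429, 6879 and 6522. Dcn averaged 1374, 55.3 and 31.5, Thy1 942, 146 and 0.481, and Lum had 0 reads in the Sox2-guide group.

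Promoter sequences are shown for 4 members that rose by different amounts in knockout-labelled against WT-labelled libraries, none of them among the 3 that fell. Col10a1 was near 0 outside the knockout-labelled libraries, Col11a1 was near 0 in the Sox2-guide libraries, Col27a1 differed 86.2-fold between knockout-labelled and WT-labelled libraries, and Col3a1 differed less than those. They are the 250 bases before the start of transcription in RefSeq (GRCm38.p6), 5′ to 3′ on the coding strand, and capitals mark matches to the motifs named below the sequences, with ATTGG in Col11a1 being CCAAT on the other strand. The Col27a1 window lies inside the span of the gene in GENCODE vM21 (63214004 to 63334991), which places the start of the gene further upstream.
Col10a1 (chr10:34389731-34389980, plus strand): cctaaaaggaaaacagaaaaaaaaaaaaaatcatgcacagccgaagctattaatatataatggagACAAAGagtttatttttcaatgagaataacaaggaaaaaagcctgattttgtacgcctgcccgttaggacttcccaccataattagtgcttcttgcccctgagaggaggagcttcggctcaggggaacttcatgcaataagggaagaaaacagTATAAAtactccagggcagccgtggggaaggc
Col11a1 (chr3:114030290-114030539, plus strand): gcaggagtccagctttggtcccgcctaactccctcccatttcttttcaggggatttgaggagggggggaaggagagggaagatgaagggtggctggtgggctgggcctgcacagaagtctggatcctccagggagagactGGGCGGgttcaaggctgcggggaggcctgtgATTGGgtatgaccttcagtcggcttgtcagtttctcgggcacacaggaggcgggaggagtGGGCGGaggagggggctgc
Col27a1 (chr4:63215162-63215411, plus strand): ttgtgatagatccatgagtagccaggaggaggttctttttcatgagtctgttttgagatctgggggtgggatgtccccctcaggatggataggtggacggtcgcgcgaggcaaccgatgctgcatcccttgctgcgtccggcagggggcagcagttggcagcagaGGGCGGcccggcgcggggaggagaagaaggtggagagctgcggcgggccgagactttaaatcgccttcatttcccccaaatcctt
Col3a1 (chr1:45311288-45311537, plus strand): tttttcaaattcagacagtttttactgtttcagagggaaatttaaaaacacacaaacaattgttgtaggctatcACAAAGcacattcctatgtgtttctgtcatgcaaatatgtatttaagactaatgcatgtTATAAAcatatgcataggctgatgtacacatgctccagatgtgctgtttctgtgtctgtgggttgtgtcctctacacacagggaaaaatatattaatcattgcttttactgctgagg
The motifs, searched on both strands and not overlapping each other in these 4 windows, were CCAAT (the CCAAT box), GGGCGG (the GC box), TATAAA (the TATA box) and a pair of cores bound by SOX factors, which read ACAAAG in the first form and ACAATG in the other. Promoters were matched for 21 of the 26 tested members, with 23 starts. ACAAAG was in 2 of the 23 windows, those of Col10a1 (position -185 from the start) and Col3a1 (-176), against 16.5% of 32851 promoters of the same length. ACAATG was in 0 of 23, against 10.7% of all. TATAAA was also in Col10a1 (-32) and Col3a1 (-117) and in 12.4% of all promoters. GGGCGG was in 16 of 23 windows, among them Col11a1 and Col27a1, and in 32.7% of all, and CCAAT in 10 of 23 and 33.8% of all. The windows printed differed in base composition, with 35.2% G and C in Col3a1, 41.6% in Col10a1, 59.6% in Col27a1 and 62.4% in Col11a1. These are matches of letters and carry no measurement of binding.

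Collagen chain genes took a larger part of the transcriptome in the knockout-labelled libraries than in either other group. Their share of reads was 0.385 ± 0.0128% in WT-labelled, 1.14 ± 0.00359% in knockout-labelled and 0.429 ± 0.0166% in Sox2-guide libraries (SD, n = 4 for these and further levels with ±, whereas ± after a log2 change is its SE). The 4 knockout-labelled libraries lay between 1.137% and 1.145%, above every other library, while the WT-labelled ranged from 0.376% to 0.404% and the Sox2-guide from 0.412% to 0.451%. The knockout-labelled mean was 2.96 times the WT-labelled and 2.66 times the Sox2-guide mean. These are shares of 3' tags, which are not divided by gene length, and in bulk cultures fewer expressing cells and less RNA per cell cannot be told apart.

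**Figure D1:**
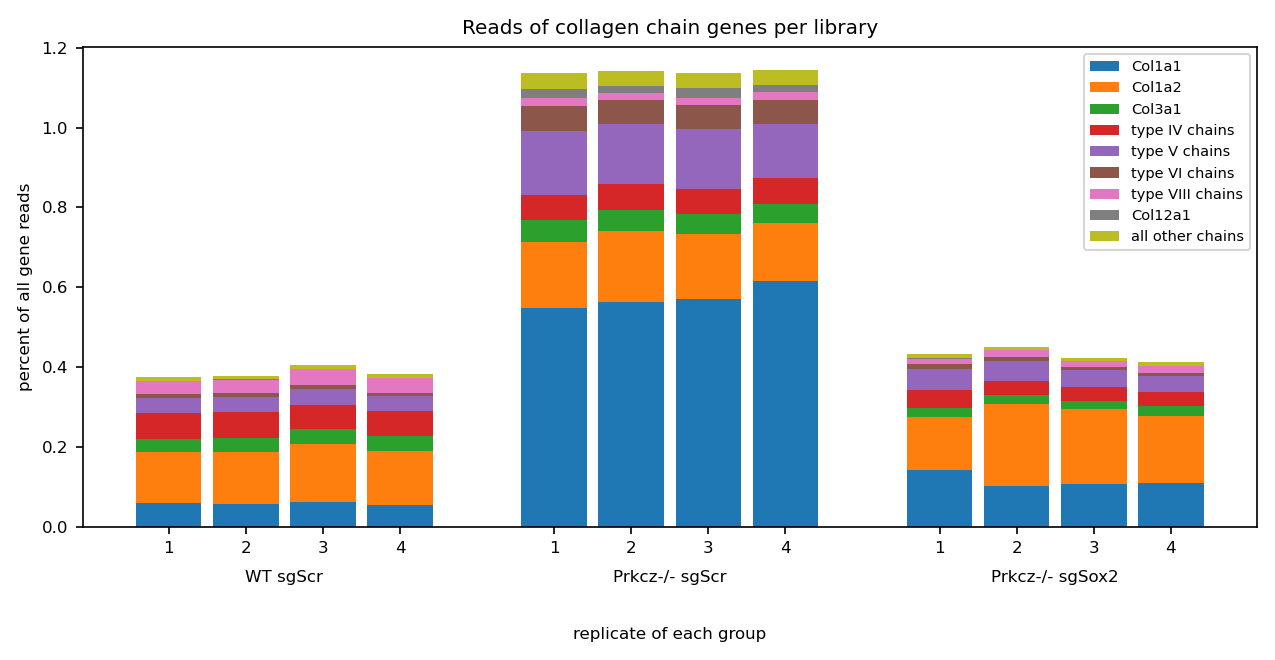
Percent of all gene reads that came from collagen chain genes in each of the 12 libraries, stacked by chain or collagen type. The 4 Prkcz-/- sgScr bars reach 1.137% to 1.145%, with Col1a1 as the largest block, and the other 8 bars stay at or under 0.451%.

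The make-up of that share differed as well. Col1a1 held 15.1 ± 0.520% of collagen reads in WT-labelled, 50.3 ± 2.38% in knockout-labelled and 26.8 ± 4.25% in the Sox2-guide libraries. Its partner chain Col1a2 held 34.8 ± 0.845%, 14.3 ± 1.18% and 40.3 ± 6.68%. Type IV chains held 16.4 ± 1.08% of collagen reads in WT-labelled, 5.55 ± 0.145% in knockout-labelled and 8.85 ± 1.23% in Sox2-guide libraries. Their share of all reads went otherwise, at 0.0631%, 0.0633% and 0.0380% in the same order. Type VI chains held 2.73 ± 0.118%, 5.34 ± 0.140% and 2.23 ± 0.437%, and type VIII chains 9.32 ± 0.447%, 1.68 ± 0.0761% and 3.60 ± 0.256%. By level, Col1a2 was the highest collagen gene in WT-labelled and Sox2-guide libraries and Col1a1 in knockout-labelled libraries.

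Between knockout-labelled and WT-labelled libraries, 22 of the 26 tested members rose, 3 fell (Col4a1, Col8a1 and Col22a1) and 1, Col4a2, did not pass the test. The test was limma on log2(value + 1) over 12676 genes, with p adjusted by Benjamini-Hochberg and a threshold of 0.05, and it called 37.6% of all tested genes higher and 29.4% lower. The median log2 difference was 2.57 for the 26 members and 0.12 for all tested genes. A call with at least a 4-fold difference was made upwards for 14 members, against 8.99% of all genes, and downwards for 1, against 4.35%. Between Sox2-guide and knockout-labelled libraries, 22 members fell, 1 rose (Col5a3) and 3 did not pass (Col1a2, Col8a1 and Col22a1), where 30.2% of all genes were called lower and 30.5% higher. The median was -1.96 for the members and -0.01 for all genes, and 13 members fell at least 4-fold, against 7.07% of all genes, while 0 rose so far, against 2.99%. Between Sox2-guide and WT-labelled libraries 8 members were higher, 6 were lower and 12 did not pass, with a median of 0.05 against 0.08 for all genes. These shares stand beside 30.1% of all genes called higher and 22.0% called lower, so 8 of 26 and 6 of 26 are near the background. The higher members were Col1a1, Col1a2, Col4a5, Col5a1, Col5a3, Col12a1, Col18a1 and Col27a1, and the lower ones Col3a1, Col4a1, Col4a2, Col6a2, Col8a1 and Col11a1. At least 4-fold calls in this last comparison numbered 0 upwards, against 3.48%, and 1 downwards, Col11a1, against 3.43% of all genes. The first and second comparison share the knockout-labelled libraries, so a high level there enters both with opposite sign.

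The filter shaped which members could be tested. In 6 of the 26 (Col4a6, Col6a4, Col8a2, Col10a1, Col14a1 and Col15a1) the group mean reached 10 normalised reads in the knockout-labelled libraries alone, and a member that passed this way had to be higher there. Without these 6, chosen after their values were seen, 16 of 20 rose and 3 fell in the first comparison with a median log2 change of 1.49, and 8 rose at least 4-fold. In the second comparison 16 of 20 fell and 1 rose, with a median of -1.19, and 7 fell at least 4-fold. Col22a1, kept among these 20, reached 10 in the WT-labelled libraries alone. Its means were 19.7, 2.80 and 7.60 in WT-labelled, knockout-labelled and Sox2-guide libraries. It had to be highest in the WT-labelled group, so the filter set the direction of its fall, the 1 fall of at least 4-fold in the first comparison. A mean of at least 10 in each group was reached by 17 members. The 14 members below the filter had 0 to 34 reads over the 12 libraries: Col2a1, Col4a4, Col6a5, Col9a1, Col9a2, Col9a3, Col11a2, Col13a1, Col17a1, Col20a1, Col23a1, Col24a1, Col25a1 and Col28a1. Their number includes the 4 transmembrane collagens listed. Just inside the limit were Col22a1 with a mean of 10.04 and Col15a1 with 38.7, and just outside Col9a3 with 7.59 and Col11a2 with 5.16. Col19a1, Col6a6, Col26a1 and Col4a3 were not analysed here.

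**Figure D2:**
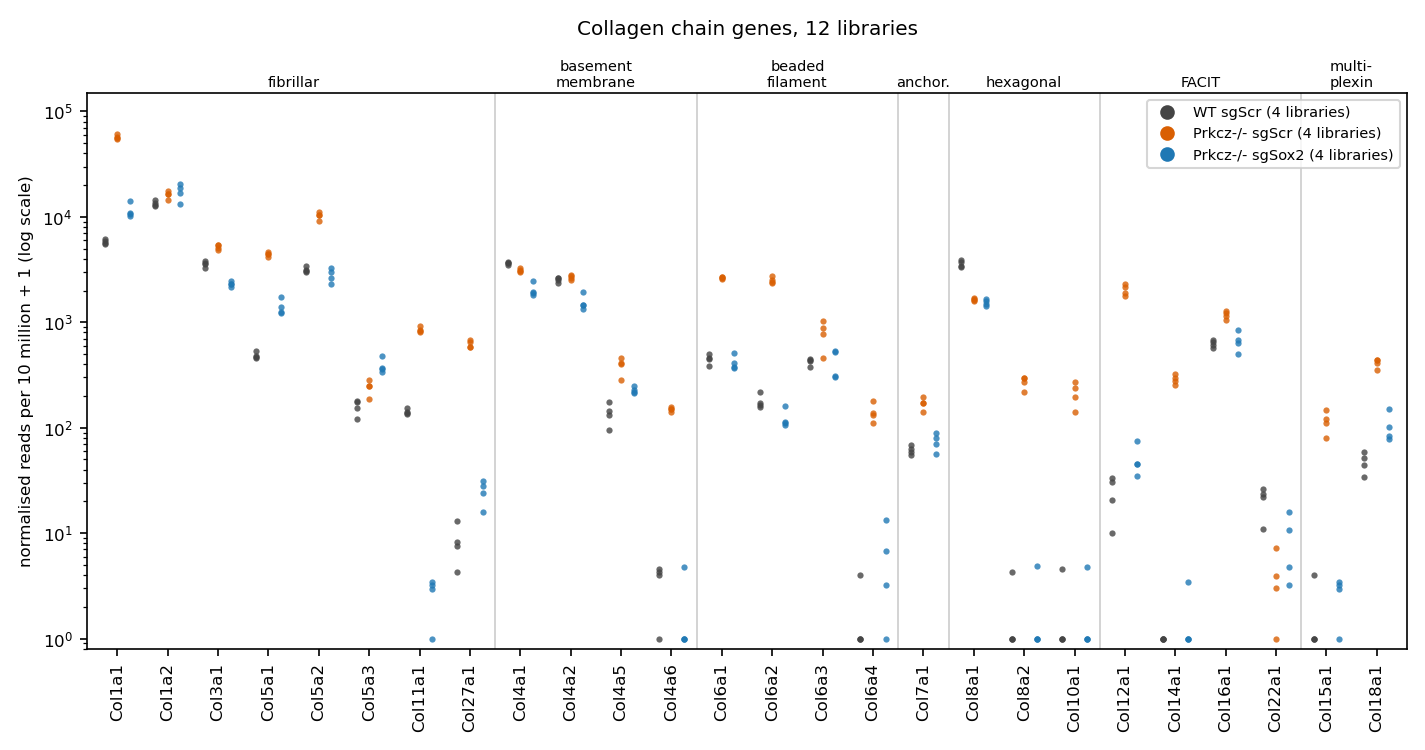
Normalised reads per 10000000, plus 1, on a log axis, for each tested collagen chain gene; each point is 1 library and genes are grouped by structure. The knockout-labelled points (Prkcz-/- sgScr) lie above the other groups for genes such as Col1a1, Col6a2 and Col12a1 and below WT sgScr for Col8a1.

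Type I collagen, the main fibril of connective tissue, is usually built from a pair of Col1a1 chains and a single Col1a2 chain, and these genes did not move alike. Of the 8 tested fibrillar members, all 8 rose in knockout-labelled against WT-labelled libraries, and 6 fell, 1 rose and 1 did not pass in Sox2-guide against knockout-labelled libraries, with median log2 changes of 2.14 and -1.78. Of all tested genes, 37.6% were called higher in the first of these comparisons, and 30.2% lower and 30.5% higher in the second. Col1a1 (chromosome 11, 94936224 to 94953042 on GRCm38) was at 5877, 5702, 6216 and 5519.6 normalised reads in WT-labelled replicates 1 to 4, at 54855, 56255, 56947 and 61467 in knockout-labelled and at 14137, 10182, 10733 and 10926 in the Sox2-guide libraries. No groups overlapped. It rose 9.84-fold in knockout-labelled against WT-labelled libraries (log2 change 3.30 ± 0.10 SE, limma adjusted p = 6.1e-14), fell 4.99-fold in Sox2-guide against knockout-labelled libraries (-2.33 ± 0.10, adjusted p = 6.3e-12) and stayed 1.97-fold above the WT-labelled level (0.97 ± 0.10, adjusted p = 4.8e-07). Col1a2 (chromosome 6, 4504814 to 4541544) was at 12760.2, 12902, 14378 and 13536 in WT-labelled, 16508, 17772, 16358 and 14546 in knockout-labelled and 13254, 20443, 18625 and 16901 in the Sox2-guide libraries. Its knockout-labelled values lay above the WT-labelled ones by a small margin, a log2 change of 0.28 ± 0.11 SE (adjusted p = 0.039). That call was lost without WT-labelled replicate 1, 2 or 4 (adjusted p = 0.092, 0.089 and 0.066), without knockout-labelled replicate 1, 2 or 3 (0.076, 0.11 and 0.075), and with edgeR (0.11) or DESeq2 (0.17). It was also lost with trimmed-mean (TMM) scaling (limma adjusted p = 0.15) and with no filter on low values (0.058). Sox2-guide and knockout-labelled libraries did not differ by this test in Col1a2 (0.07 ± 0.11, adjusted p = 0.6), but without Sox2-guide replicate 1, the lowest of its group, the change was 0.19 with an adjusted p of 0.031, and without replicate 2, the highest, it was -0.01. The change against WT-labelled libraries was 0.35 ± 0.11 (adjusted p = 0.016), and without Sox2-guide replicate 2 it was 0.27 (adjusted p = 0.054). This call was also lost with quantile scaling (limma adjusted p = 0.22), TMM scaling (0.1) and DESeq2 (0.074).

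Col3a1 (chromosome 1, 45311538 to 45349706), whose type III chain forms fibrils with type I in distensible organs such as the gut, was at 3302, 3644, 3825 and 3591 in WT-labelled, 5354, 5432, 5101 and 4847 in knockout-labelled and 2282, 2450.2, 2181 and 2327 in Sox2-guide libraries. The groups were separate, with the Sox2-guide group lowest: the log2 change was 0.53 ± 0.07 SE for knockout-labelled against WT-labelled (limma adjusted p = 7e-06), -1.17 ± 0.07 for Sox2-guide against knockout-labelled (8.3e-10) and -0.64 ± 0.07 for Sox2-guide against WT-labelled libraries (2e-06). Type V collagen starts the assembly of type I fibrils and limits their width. Its chain Col5a1 (chromosome 2, 27886425 to 28039514) had 532, 462, 476 and 467, then 4681, 4394, 4463 and 4191, then 1725, 1246, 1222 and 1386 normalised reads in the WT-labelled, knockout-labelled and Sox2-guide libraries. It rose 9.15-fold and then fell 3.18-fold, to a level 2.88-fold above the WT-labelled mean, without overlap (log2 changes 3.19 ± 0.10, -1.68 ± 0.10 and 1.51 ± 0.10 SE, adjusted p = 1.2e-13, 4.6e-10 and 3e-09). Col5a2 (chromosome 1, 45374321 to 45503282), the usual partner of Col5a1, had 3107, 3073, 3382 and 3026, then 11137, 10363, 10377 and 9129, then 2989.6, 3269, 2616 and 2324. The knockout-labelled libraries were alone at the top, 3.26-fold above WT-labelled and 3.66-fold above Sox2-guide means (adjusted p = 2e-10 and 8.8e-11), and the other groups overlapped (-0.18 ± 0.10, adjusted p = 0.14, but 0.031 without Sox2-guide replicate 2, and 0.03 with edgeR and 0.012 with DESeq2). Col5a3 (chromosome 9, 20770050 to 20815067), a chain of narrower expression, had 175, 119, 177 and 151, then 246, 248, 185 and 285, then 473, 334, 371 and 363. It was the member that rose in both steps, by a log2 change of 0.63 ± 0.17 and 0.68 ± 0.17 SE (adjusted p = 0.0031 and 0.002).

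Col11a1 and Col27a1 encode fibrillar chains best known from cartilage. Col11a1 (chromosome 3, 114030540 to 114220718) had 153, 137, 135 and 141 normalised reads in WT-labelled and 852, 816, 811 and 916 in knockout-labelled libraries, and 1.92, 2.23, 0 and 2.47 in the Sox2-guide libraries, where it came to 3 reads over the group. It rose 6.00-fold in the first comparison (2.58 ± 0.31 SE, limma adjusted p = 1.7e-06). The ratio of knockout-labelled to Sox2-guide reads was 464 (95% counting interval 158 to 2253, adjusted p = 1.2e-12), and that of WT-labelled to Sox2-guide reads 77.4 (26.0 to 379, adjusted p = 1.8e-10). Among the 6 members lower in Sox2-guide than in WT-labelled libraries, Col11a1 was the 1 that passed a 4-fold limit. Col27a1 (chromosome 4, 63214004 to 63334991) had 6.49, 7.22, 12.0 and 3.29 in WT-labelled, 655, 583, 676 and 582 in knockout-labelled and 23.1, 26.7, 30.0 and 14.8 in Sox2-guide libraries. The groups were separate, 86.2-fold between knockout-labelled and WT-labelled (6.35 ± 0.31, adjusted p = 2.4e-11), 26.4-fold down to the Sox2-guide level (-4.71 ± 0.31, adjusted p = 1.6e-09), and the latter 3.26-fold above WT-labelled (1.64 ± 0.31, adjusted p = 0.0003). Of 5 listed cartilage markers, 3 were in the table. Comp had 0, 0 and 1 read in the WT-labelled, knockout-labelled and Sox2-guide groups and Hapln1 had 1, 0 and 1, and the 3 markers, almost only Sox9, summed to 877 to 1158 in WT-labelled, 449.8 to 599.6 in knockout-labelled and 678 to 792 in Sox2-guide libraries. Acan and Matn1 were not analysed here.

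Basement membrane chains had a smaller median difference than the fibrillar group, which was not tested: of 4 measured above the filter, 2 rose, 1 fell and 1 did not pass in the first comparison (median log2 change 0.80), and all 4 fell in the second (-0.78). Among all tested genes, 37.6% were called higher and 29.4% lower in the first, and 30.2% lower in the second. The counts and medians of basement membrane chains include Col4a6, whose directions the filter set. Col4a1 and Col4a2, which form the common type IV network, lie head to head on chromosome 8 and overlap by 22 bases at their starts (11198423 to 11312826 and 11312805 to 11449287). Col4a1 had 3721, 3676, 3517 and 3644 in WT-labelled, 3073, 3102, 3029 and 3288 in knockout-labelled and 2451, 1945, 1810.0 and 1894 in Sox2-guide libraries, falling step by step with no overlap. Its first step was small (-0.22 ± 0.09 SE, limma adjusted p = 0.033) and lost its call without WT-labelled replicate 1, 2 or 4 (0.073, 0.068 and 0.063) or knockout-labelled replicate 1, 2 or 3 (0.069, 0.065 and 0.078). The call of this step was also lost with quantile scaling (0.25) and with no filter on low values (0.055). The second was -0.63 ± 0.09 SE (adjusted p = 8.7e-06). Col4a2 had 2607, 2632, 2331 and 2543, then 2732, 2648, 2507 and 2779.7, then 1921, 1331, 1469 and 1465. The first groups overlapped (0.08 ± 0.10, adjusted p = 0.5), and the Sox2-guide libraries were below both (log2 change -0.80 ± 0.10 against knockout-labelled, adjusted p = 2.5e-06, and -0.72 ± 0.10 against WT-labelled, adjusted p = 1.2e-05).

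The other type IV pair, Col4a5 and Col4a6, lies head to head on chromosome X with 1308 bases between the starts (141475385 to 141689234 and 141165403 to 141474076), and encodes chains of a second network found around smooth muscle. Col4a5 had 94.2, 173, 144 and 131 in WT-labelled, 461, 405, 410.0 and 282 in knockout-labelled and 219, 249.3, 214 and 225 in Sox2-guide libraries. The groups did not overlap, and the log2 changes were 1.53 ± 0.18 and -0.76 ± 0.18 SE in the first and second comparison (limma adjusted p = 1.4e-06 and 0.0018) and 0.77 ± 0.18 against WT-labelled (0.002). Col4a6 had 0, 3.61, 2.99 and 3.29 normalised reads in WT-labelled (3 reads), 140.3, 157, 150.2 and 149 in knockout-labelled (217 reads) and 0, 0, 3.75 and 0 in the Sox2-guide libraries (1 read). The read ratio to WT-labelled was 60.5 (95% counting interval 20.4 to 295, adjusted p = 3.6e-07) and to Sox2-guide 243 (43.2 to 9656, adjusted p = 6.8e-08). Col4a6 reached the filter's limit in the knockout-labelled libraries alone, so the filter set the direction of both differences. Between WT-labelled and Sox2-guide libraries Col4a6 was called in neither direction (-1.01 ± 0.60, adjusted p = 0.17), though it was called lower without WT-labelled replicate 1 (-1.54, adjusted p = 0.029) or Sox2-guide replicate 3 (-1.58, adjusted p = 0.024). Col4a5 was thus detected in every library, and Col4a6 had at most 1 read in any library outside the knockout-labelled group. The 5 smooth muscle markers summed to 72.2 to 114 in WT-labelled, 838 to 898 in knockout-labelled and 4.94 to 15.6 in Sox2-guide libraries. They did not move alike. Lmod1 averaged 8.03, 654 and 1.11 normalised reads in the same order, and Synpo2 16.6, 157 and 3.04. Actg2 was lower in knockout-labelled than in WT-labelled libraries, at 68.4, 42.7 and 5.26. Des averaged 0.812, 3.13 and 0, and Myh11 was at 0 in the first and last group and at 6.17 in the knockout-labelled. Their part in the result was not tested.

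Type VI chains rose together in knockout-labelled libraries and fell again, all 4 tested members passing in both comparisons, with median log2 changes of 3.20 and -3.53. Of all tested genes, 37.6% were called higher in the first comparison and 30.2% lower in the second. Col6a4 reached the filter's limit in the knockout-labelled libraries alone, so the filter set the direction of its rise and fall. The counts and medians of type VI chains include it. Col6a1, Col6a2 and Col6a3 assemble with each other into beaded filaments, and Col6a1 and Col6a2 are neighbours on chromosome 10 (76708792 to 76726168 and 76595762 to 76623630). Col6a1 had 461, 448, 499.8 and 384 in WT-labelled, 2589.7, 2712, 2669 and 2602 in knockout-labelled and 509, 407, 364 and 373 in Sox2-guide libraries, a rise of 5.90-fold and a fall of 6.40-fold (log2 changes 2.56 ± 0.11 and -2.69 ± 0.11 SE, limma adjusted p = 4.4e-12 and 4e-12). The outer groups overlapped (-0.12 ± 0.11, adjusted p = 0.36), but without Sox2-guide replicate 1 the change was -0.23 (adjusted p = 0.034). Col6a2 had 162, 169.7, 215 and 158, then 2510.4, 2423, 2366 and 2764, then 159.6, 113, 109 and 106, 14.3-fold up and 20.6-fold down (3.84 ± 0.14 and -4.37 ± 0.14 SE, adjusted p = 6.5e-13 and 2e-13). It was lower in Sox2-guide than in WT-labelled libraries, with overlap of the highest value (-0.54 ± 0.14 SE, adjusted p = 0.0039). Col6a3 (chromosome 1, 90765923 to 90843971) had 432, 448, 374 and 440.3, then 1016, 779, 883 and 459.5, then 538, 523, 304 and 306. The knockout-labelled values spread widely, with replicate 4 inside the range of the Sox2-guide libraries, and the changes were 0.83 ± 0.22 and -0.90 ± 0.22 SE (adjusted p = 0.0036 and 0.0023). Col6a4 (chromosome 9, 105989454 to 106096783), an alternative to the Col6a3 chain, had 0, 0, 2.99 and 0 in WT-labelled (1 read), 177, 131, 109.5 and 136 in knockout-labelled and 5.77, 2.23, 0 and 12.3 in Sox2-guide libraries (9 reads). The read ratio of knockout-labelled to WT-labelled was 175 (31.0 to 6934, adjusted p = 2.8e-07), and its level was 27.2-fold lower in Sox2-guide libraries (adjusted p = 7.8e-06). Against WT-labelled it was not called (1.55 ± 0.68, adjusted p = 0.069), but was called higher without WT-labelled replicate 3 (2.05, adjusted p = 0.022) or Sox2-guide replicate 3 (2.23, adjusted p = 0.0053).

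**Figure D3:**
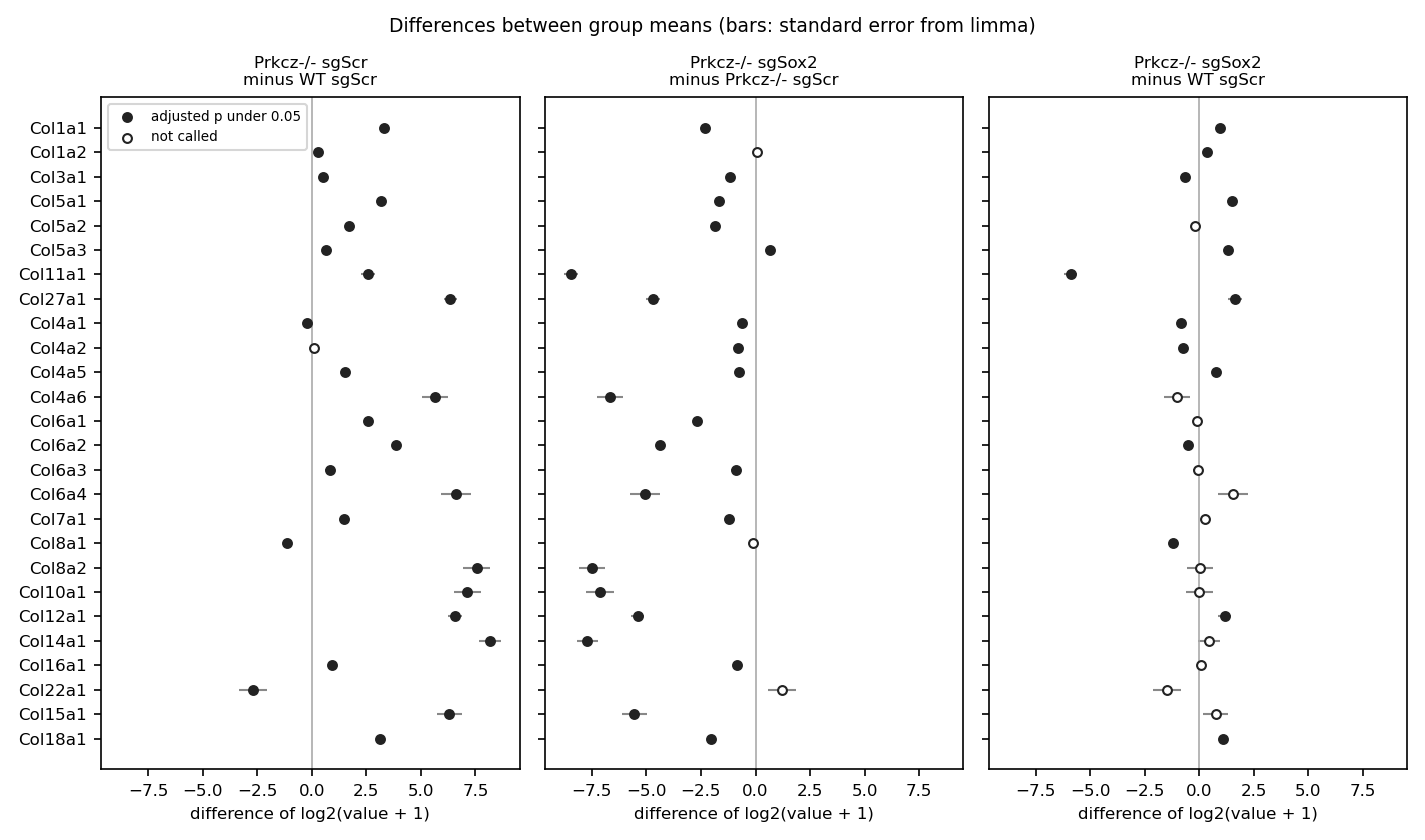
Differences of log2(value + 1) between group means for each tested collagen chain gene in the 3 comparisons, with standard errors from limma as bars; filled points passed an adjusted p under 0.05. Col11a1 lies farthest to the left in both panels on Sox2-guide libraries, and 22 genes lie to the right of 0 with a call in the first.

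Col8a1 and Col8a2 form the hexagonal network of type VIII collagen and went opposite ways between knockout-labelled and WT-labelled libraries. Col8a2 reached the filter's limit in the knockout-labelled libraries alone, so the filter set its side of that contrast and its later fall. Col8a1 (chromosome 16, 57624258 to 57754737) had 3341, 3391, 3921 and 3706 in WT-labelled, 1705, 1586, 1649 and 1641 in knockout-labelled and 1413, 1656, 1503 and 1600.4 in Sox2-guide libraries. It fell 2.18-fold in knockout-labelled and was 2.33-fold lower in Sox2-guide than in WT-labelled libraries (-1.12 ± 0.08 and -1.22 ± 0.08 SE, limma adjusted p = 1.9e-09 and 1.7e-09), and the knockout-labelled and Sox2-guide groups overlapped (-0.09 ± 0.08, adjusted p = 0.3). Col8a2 (chromosome 4, 126286793 to 126314330) had 0, 0, 0 and 3.29 in WT-labelled (1 read), 297, 219, 294 and 272 in knockout-labelled (399 reads) and 3.85, 0, 0 and 0 in Sox2-guide libraries (2 reads). The read ratios were 334 (59.5 to 13207, adjusted p = 1.3e-08) and 224 (61.5 to 1854, adjusted p = 2e-08). Col10a1 (chromosome 10, 34389981 to 34397085), a related network collagen of hypertrophic cartilage, had 0, 3.61, 0 and 0 in WT-labelled (1 read), 238, 192, 272 and 139 in knockout-labelled and 0, 0, 3.75 and 0 in Sox2-guide libraries (1 read). Its read ratios were 262 (46.6 to 10367) and 351 (62.5 to 13908), with adjusted p = 4.2e-08 and 5.9e-08. Col10a1 too was tested only through its knockout-labelled level, so the filter set the direction of both differences. The gene that overlaps it on the other strand, Nt5dc1, was at 212, 213 and 209 normalised reads in the 3 groups.

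Col12a1 and Col14a1 encode fibril-associated chains that sit on the surface of type I fibrils. Of the 4 tested members of this class, 3 rose and 1 fell in the first comparison, and 3 fell and 1 did not pass in the second. Among all tested genes, 37.6% were called higher and 29.4% lower in the first, and 30.2% lower in the second. Col14a1 reached the filter's limit in the knockout-labelled libraries alone, and Col22a1 in the WT-labelled alone. The filter thus set the direction of the rise and fall of Col14a1 and of the fall of Col22a1, which these counts include. Col12a1 (chromosome 9, 79598991 to 79718831) had 29.2, 32.5, 8.98 and 19.7 in WT-labelled, 2163, 1898, 2303 and 1789 in knockout-labelled and 44.2, 73.4, 33.7 and 44.5 in Sox2-guide libraries. It rose 90.2-fold and fell 41.6-fold, with no overlap (6.57 ± 0.31 and -5.40 ± 0.31 SE, limma adjusted p = 1.7e-11 and 2.9e-10), and its Sox2-guide level was 2.17-fold above WT-labelled (adjusted p = 0.005). Col14a1 (chromosome 15, 55307750 to 55520803) had 0 reads in WT-labelled libraries, 297, 321, 253 and 278 normalised reads in knockout-labelled (423 reads) and 0, 0, 0 and 2.47 in Sox2-guide libraries (1 read). It was at least 118-fold higher than in WT-labelled libraries, taking 3 reads in the group as the floor (adjusted p = 2.7e-10), and its read ratio to Sox2-guide libraries was 474 (84.7 to 18780, adjusted p = 9e-10). Col16a1 (chromosome 4, 130047840 to 130099283), another fibril-associated chain, moved little by comparison, at 675, 574, 605 and 644, then 1228, 1058, 1277 and 1149, then 846, 634, 502 and 672, with knockout-labelled values above both other groups (0.91 ± 0.13 and -0.85 ± 0.13 SE, adjusted p = 7.9e-06 and 2.3e-05). Col22a1 (chromosome 15, 71795795 to 72034227), a chain of tissue junctions such as that of muscle and tendon, was rare, at 22.7, 25.3, 21.0 and 9.86 in WT-labelled (24 reads), 2.03, 2.92, 6.26 and 0 in knockout-labelled (4 reads) and 9.61, 2.23, 3.75 and 14.8 in Sox2-guide libraries (13 reads), and the last group overlapped both others. Its fall in knockout-labelled libraries passed (-2.69 ± 0.65 SE, limma adjusted p = 0.0016), but it was tested only through its WT-labelled level, so the direction was set by the filter. Sox2-guide libraries were not called against the knockout-labelled (limma adjusted p = 0.11, but 0.045 without knockout-labelled replicate 3 and 0.0064 with quantile scaling). Against WT-labelled they were not called either (0.069), but were without WT-labelled replicate 4 (0.049), knockout-labelled replicate 4 (0.037) or Sox2-guide replicate 4 (0.036), and with edgeR (0.029).

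Col7a1 (chromosome 9, 108953586 to 108984875), the chain of the anchoring fibrils beneath epithelia, had 68.2, 57.8, 53.9 and 62.4 in WT-labelled, 169, 172, 141 and 194 in knockout-labelled and 88.4, 55.6, 78.7 and 69.2 in Sox2-guide libraries. It was higher in knockout-labelled than in both other groups, which overlapped (1.46 ± 0.19 and -1.21 ± 0.19 SE, limma adjusted p = 3.6e-06 and 3.6e-05). Col15a1 and Col18a1 encode multiplexins, which lie at basement membranes, and a fragment of Col18a1 protein is endostatin. Col15a1 (chromosome 4, 47208161 to 47313167) had 0, 0, 2.99 and 0 in WT-labelled (1 read), 146, 78.7, 109.5 and 119.7 in knockout-labelled (171 reads) and 1.92, 2.23, 0 and 2.47 in Sox2-guide libraries (3 reads). Its read ratios were 143 (25.3 to 5679) and 63.9 (21.5 to 313), with adjusted p = 6e-08 and 3.7e-07. Col15a1 was tested only through its knockout-labelled level, so the filter set the direction of both differences. Col18a1 (chromosome 10, 77052178 to 77166548) had 58.4, 43.3, 50.9 and 32.9, then 441, 434, 354 and 408, then 148, 77.9, 82.4 and 101. The groups were separate, 8.82-fold up and then 3.996-fold down (3.14 ± 0.22 and -2.03 ± 0.22 SE, adjusted p = 1.9e-09 and 5.3e-07), and 2.21-fold above WT-labelled in Sox2-guide libraries (adjusted p = 0.00043).

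Partner chains of 1 collagen type were compared as log2 ratios within a library, in 5 pairs and 3 comparisons, 15 exact two-sided permutation tests over libraries with a smallest possible p of 0.0286. Col1a1 relative to Col1a2 had a mean ratio of 0.436 ± 0.0220 in WT-labelled, 3.55 ± 0.469 in knockout-labelled and 0.697 ± 0.254 in Sox2-guide libraries. The Sox2-guide libraries ranged from 0.498 to 1.07, the highest being replicate 1. The difference of mean log2 ratio was 3.02 between knockout-labelled and WT-labelled and -2.40 between Sox2-guide and knockout-labelled libraries, and 0.62 between Sox2-guide and WT-labelled libraries (0.39 without Sox2-guide replicate 1). All 3 had an exact p of 0.0286 and an adjusted p of 0.0357. Col5a1 relative to Col5a2 rose by 1.49 from a mean ratio of 0.154 ± 0.0128 to 0.433 ± 0.0176 (adjusted p = 0.0357, exact permutation test) and was 0.505 ± 0.1004 in Sox2-guide libraries, which overlapped the knockout-labelled ones (difference 0.20, exact p = 0.314). Col6a1 relative to Col6a2 went from 2.56 ± 0.229 to 1.06 ± 0.0874 and 3.41 ± 0.176, without overlap in any comparison (adjusted p = 0.0357 for each, exact permutation test). Col6a1 relative to Col6a3 was at 1.07 ± 0.195, 3.68 ± 1.38 and 1.04 ± 0.211, so the first and last group did not differ beyond their spread (difference -0.05, exact p = 0.8). Col4a1 relative to Col4a2 stayed closer, at 1.44 ± 0.0475, 1.17 ± 0.0349 and 1.32 ± 0.1005. The knockout-labelled libraries were below both others in that ratio (-0.30 and 0.16 in the first and second comparison, adjusted p = 0.0357, exact permutation test), and the outer groups overlapped (-0.13, exact p = 0.114). In all, 12 of the 15 tests had an adjusted p of 0.0357.

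**Figure D4:**
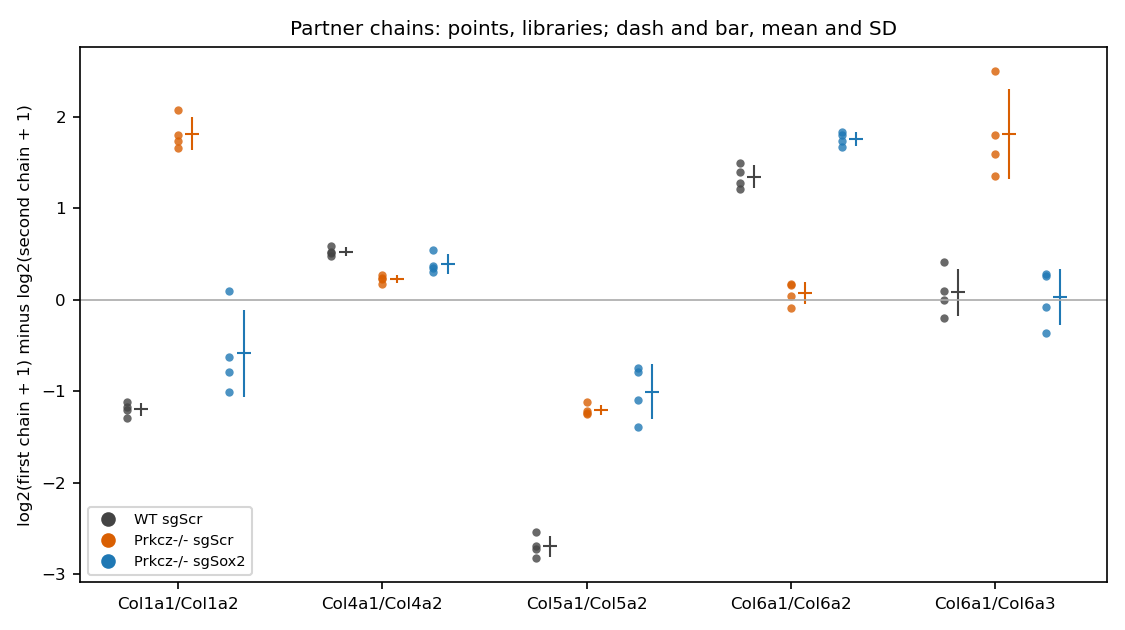
Difference of log2(value + 1) between partner chains in each library, for 5 pairs of chains in the 3 groups, with group means and SD. Col1a1/Col1a2 lies between 1.66 and 2.08 in the Prkcz-/- sgScr libraries and at or below 0.093 in the other 8. As plain ratios these are 3.17 to 4.23 and at most 1.07.

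Genes that modify, trim and cross-link collagen were mostly higher in knockout-labelled libraries too. Of 31 tested members of a list of 33 processing genes, 25 rose and 6 fell between knockout-labelled and WT-labelled libraries, with a median log2 change of 0.80, beside 37.6% of all genes called higher and 29.4% lower. Adamts3, a protease that removes the N-terminal end of procollagen, had 0 and 63 reads, at least 17.6-fold higher (limma adjusted p = 1.3e-07). Adamts3 reached the filter's limit in the knockout-labelled libraries alone, with a mean of 41.8. The filter thus set the direction of its rise and of its fall given below. Its relative Adamts2 rose from 33.3 ± 12.0 to 1331 ± 77.5 normalised reads (5.34 ± 0.21 SE, adjusted p = 2e-12), and the prolyl 3-hydroxylase P3h2 rose from 34.7 ± 13.9 to 399 ± 15.2 (3.58 ± 0.26, adjusted p = 3.3e-09). The largest falls were those of Tll1, a protease of the C-terminal end (67 to 3 reads, a ratio of 26.7 with a counting interval of 8.76 to 133, adjusted p = 7.6e-06), the lysyl hydroxylase Plod2 (-1.68 ± 0.10, 4e-10) and Crtap, a partner of prolyl 3-hydroxylase (-1.46 ± 0.22, 2.3e-05). In Sox2-guide against knockout-labelled libraries 20 fell, 2 rose and 9 did not pass, with a median of -0.46, beside 30.2% of all genes called lower and 30.5% higher. Adamts3 fell to 0 reads, at least 23.6-fold lower, followed by the prolyl 4-hydroxylase P4ha3 (-4.29 ± 0.30 SE, adjusted p = 2.9e-09) and Adamts2 (-3.02 ± 0.21, 3.7e-09), and the 2 that rose were Tll1 (3 to 14 reads, a ratio of 4.16 with an interval of 1.16 to 22.6, adjusted p = 0.0083, with overlap) and the lysyl oxidase-like gene Loxl4 (1.18 ± 0.20, 9.2e-05). Against WT-labelled libraries, Sox2-guide libraries had 13 higher (41.9%) and 8 lower (25.8%), with a median of 0.34, beside 30.1% and 22.0% of all genes. The largest rises there were those of Creb3l1, a transcription factor of collagen-secreting cells (2.54 ± 0.20, adjusted p = 2.1e-08), Adamts2 (2.31 ± 0.21, 1.7e-07) and P3h2 (1.62 ± 0.26, 6.8e-05). The largest falls were those of Tll1 (-2.63 ± 0.68, adjusted p = 0.0039), Plod2 (-2.15 ± 0.10, 5.5e-11) and P4ha3 (-1.44 ± 0.30, 0.00068). Tll1 averaged 54.4, 2.35 and 8.75 in WT-labelled, knockout-labelled and Sox2-guide libraries, reaching the filter's limit in the WT-labelled group alone. The filter thus set the direction of its falls against that group. The counts of rises and falls given for this list include Adamts3 and Tll1.

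Of the 6 receptors for collagen that were tested, 4 rose and 1 fell in knockout-labelled against WT-labelled libraries, where 37.6% of all genes were called higher and 29.4% lower. The integrin alpha chain Itga1 went from 4.08 ± 4.88 to 283 ± 29.8 and 8.63 ± 2.79 normalised reads in the WT-labelled, knockout-labelled and Sox2-guide libraries (log2 changes 6.56 ± 0.64 and -4.92 ± 0.64 SE, limma adjusted p = 1.3e-07 and 4.8e-06). Itga11, a receptor of fibrillar collagen, had 2, 396 and 0 reads, a read ratio of 166 (45.5 to 1372) and a fall of at least 148-fold. The receptor kinase Ddr1 went from 529 ± 37.9 to 1973 ± 129 and 837 ± 137, and Ddr2 from 3214 ± 220.2 to 12089 ± 212 and 5120.3 ± 699, both passing in all 3 comparisons. Itgb1, the beta chain that pairs with the alpha chains, fell in both steps, from 9677 ± 239 to 5615 ± 365 and 3854 ± 331. Itga10 had 19, 28 and 11 reads and fell in Sox2-guide against knockout-labelled (-1.55 ± 0.50 SE, adjusted p = 0.012) and against WT-labelled libraries (0.045). All 6 fell in Sox2-guide against knockout-labelled libraries, where 30.2% of all genes were called lower. Itga1 and Itga11 reached the filter's limit in the knockout-labelled libraries alone, with means of 283 and 268. The filter thus set the direction of their rises and falls, which are counted among the 4 rises and 6 falls.

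Markers of other cell types moved with the groups as well. Mesothelial markers summed to 1136 to 1296 normalised reads in WT-labelled, 10.2 to 16.2 in knockout-labelled and 296 to 498 in Sox2-guide libraries, mainly Msln, with Lrrn4 at 0 throughout. Pericyte markers (3 of 5 listed in the table) summed to 97.4 to 165, 277 to 309.8 and 37.8 to 61.5. Among them Notch3 averaged 34.4, 237 and 49.2, Rgs5 had 0, 93 and 1 read, and Cspg4 had 111, 0 and 0 reads. Osteoblast markers (2 of 5 listed in the table) were almost only Runx2 and summed to 251 to 295, 321 to 479 and 159.6 to 238, with Bglap at 0, 1 and 2 reads. Markers of glia and neurons, mainly Tubb3, summed to 250.01 to 361, 628 to 787 and 452 to 504, with Sox10 at 1, 0 and 0 reads. Epithelial, endothelial and immune markers (7 of 8, 5 of 6 and 4 of 6 in the table) summed to at most 62.4, 116 and 49.99 in any library, with Krt20 and Adgre1 at 0 throughout. Malat1, a nuclear RNA, took 0.472%, 1.42% and 0.505% of reads. The part of these values in the collagen results was not tested.

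Several members overlap other genes, and since it is not known here whether counting used the strand, the levels of the pairs named next are uncertain to the extent that reads were shared. On the same strand these are Col1a2 with Gm43921, Col4a5 with Gm15268 and Col5a2 with Gm38211. Gm38211 itself went from 133 to 544 and 146 normalised reads. On the other strand they are Col5a1 with 2810430I11Rik, Col10a1 with Nt5dc1, Col18a1 with Slc19a1, and Col4a1 with Col4a2.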

How the data were processed

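RNA was measured in 12 libraries, 3 groups of 4, by QuantSeq FWD, which sequences transcript 3' ends, from 200 ng of total RNA with single-end reads, per the labels' protocols. The deposited values are a signal per gene, reads that the authors scaled so that each library sums to 10000000. Per the submitters' processing notes, GRCm38 was the build. No source used here gives the aligner, counter, strand setting or use of molecular identifiers, so intervals and floors cover counting error only. Whole reads could be recovered for 100.0% of values within 0.01 read. Of 23106 identifiers, 23002 matched a symbol.

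Groups came from the labels. The members and gene lists were chosen with earlier results of these data known. Genes with a mean of at least 10 (12676) were tested in R 4.3.3 with limma 3.58.1 (trend) on log2(value + 1) in 1 fit of all 12 libraries, with Benjamini-Hochberg adjustment over all tested genes and a threshold of 0.05. Fold changes given as folds are ratios of group means. The log2 scale with a pseudocount of 1 understates changes of low genes. Read ratios carry exact 95% intervals. Ratios of partner chains were tested by exact two-sided permutation over libraries (SciPy 1.17.1). Each step was tested on simulated data.

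Every member above the filter was named, with each library's value where a group mean reached 100 or a call had at least a 4-fold difference, along with the targeted genes, the 3 largest called rises and falls of processing genes per comparison, and all receptors above the filter. Coordinates are from GENCODE vM21 and promoters from RefSeq. Alternatives were other pseudocounts, filters, scalings and totals, the replicate number as a block, fits of the compared groups alone, leaving out each library, and edgeR 4.0.16 and DESeq2 1.42.0 on recovered reads. Calls there were made with the same threshold.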

Additional observations from a re-analysis of the deposited data

Results flagged for a closer look

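Col6a2 in Sox2-guide replicate 1 was at 159.6 normalised reads, while the other Sox2-guide libraries lay between 106 and 113. This library was set apart because its gap to the nearest other library was 0.863 of the group's range, above the 95% critical value for 4 libraries (Dixon's test). It was the 1 such value among 80 sets of 4 libraries examined, 62 of levels of collagen chain genes with a group mean of at least 10 and 18 of collagen shares and partner chain ratios, and chance gives about 1 in 20. Without that library the log2 change of Col6a2 between Sox2-guide and WT-labelled libraries was -0.67, against -0.54 with it. The same library had the lowest share of mitochondrial reads, 4.29%, and the part of that difference in the Col6a2 value was not tested.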

How the results depend on the processing

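Of 78 gene results (26 members in 3 comparisons), 68 kept their call under every alternative run, 10 changed it under at least 1, and 0 called results reversed. The exceptions are Col1a2 and Col4a1 between knockout-labelled and WT-labelled libraries, Col1a2 and Col22a1 between Sox2-guide and knockout-labelled libraries, and Col1a2, Col4a6, Col5a2, Col6a1, Col6a4 and Col22a1 between Sox2-guide and WT-labelled libraries. Quantile scaling gave 2 members called higher in Sox2-guide against knockout-labelled libraries instead of 1. The added member was Col22a1, with 13 reads against 4 (log2 change 2.22, limma adjusted p = 0.0064), and the cause was not tested. This scaling also moved the median of all genes by -0.17 between knockout-labelled and WT-labelled libraries. With mitochondrial genes left out of the total, the collagen share was 0.431%, 1.28% and 0.469% in WT-labelled, knockout-labelled and Sox2-guide libraries, which follows from the smaller total.

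Leaving out each library in turn gave 21 to 22 members higher and 2 to 3 lower between knockout-labelled and WT-labelled libraries, 1 to 2 higher and 22 lower between Sox2-guide and knockout-labelled, and 7 to 9 higher and 6 to 7 lower between Sox2-guide and WT-labelled libraries. The 2 higher arose without knockout-labelled replicate 3 (Col22a1) or without Sox2-guide replicate 1 (Col1a2). The share stayed within 0.379% to 0.388%, 1.139% to 1.142% and 0.422% to 0.435%. Small changes that were not called, those of Col1a2 in Sox2-guide against knockout-labelled and of Col6a3, Col8a2, Col10a1 and Col16a1 in Sox2-guide against WT-labelled libraries, changed sign without single libraries.

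Same-numbered libraries showed little shared deviation (correlations -0.04 to 0.13, 1 of 12 over 0.1). Such correlations cannot settle whether equal numbers share an animal, culture or batch, which the labels do not state. With the replicate block the counts were 22 higher and 3 lower, 1 higher and 22 lower, and 8 higher and 6 lower, as without it.

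On recovered reads edgeR called 8550, 8058 and 6647 genes and DESeq2 8173, 7558 and 6188 in the same order of comparisons, and both called 21 members higher and 3 lower between knockout-labelled and WT-labelled libraries. Depth limits members with a few reads in a group, for which ratios have wide intervals.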
